A study of Mus musculus with 22 samples.

Results

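The 9 genes described here encode transcription factors that set and keep enterocyte identity in the gut: Cdx1, Cdx2, Hnf4a, Hnf4g, Klf4, Klf5, Elf3, Gata4 and Gata6. They were taken by name from the 21887 protein-coding genes of the mm10 gene table, by a rule that uses no measured value, although the set was proposed with earlier results of these data known. The question was which of these loci carry the Polycomb protein PCGF6, its partner RING1B, the histone mark H2AK119ub1, the insulator protein CTCF and the cohesin subunit RAD21, and which of those peaks are missing when Pcgf6 is lost. The material was formaldehyde-fixed small intestinal crypts of C57BL/6 mice, profiled by ChIP-seq in 2 Cre lines, with E14 embryonic stem cells (ESC) beside them.

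In the AhCre line, WT and Pcgf6 KO crypts were profiled for PCGF6, RING1B and H2AK119ub1. In the Villin line, WT and Pcgf6 KO crypts were profiled for RING1B, H2AK119ub1, CTCF and RAD21. WT ESC were profiled for PCGF6 and RING1B. Villin regulatory sequence drives Cre in the gut epithelium, and AhCre is driven by the Cyp1a1 promoter, which BNF switches on, so KO means loss in the Cre-expressing cells of an adult mouse. The design text gives male mice of 8 to 12 weeks and crypts taken 7 days after tamoxifen (Villin) or BNF (AhCre), but describes RNA collection, so whether these hold for the ChIP crypts was not given in the sources used here, nor was the targeted allele or whether WT mice carried Cre. H2AK119ub1 chromatin of both lines and genotypes carried 5% Drosophila S2 chromatin. For the ESC samples, 1 of the label lines exchanges PCGF6 and RING1B, and the titles and antibody tags were followed. Of 22 samples, 16 had a peak list and 6 were inputs without one.

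Every group had 1 library, so no value below has a replicate error and no test between genotypes was possible. The lists hold between 1662 and 32651 peaks and no read counts, and sequencing depth is therefore unknown. Each peak carries a score from the authors' peak caller, −log10 of a p or q value, and the lowest score in any list is 10.0. Scores are not scaled between libraries, so WT and KO scores are set side by side and their differences are not tested. A gene "has a peak" when a peak lies within 1 kb of either annotated end, and a peak is "lost" when no KO peak lies there and no WT peak there overlaps a KO peak. Peaks inside the gene and up to 10 kb outside it are given separately. Ends are named by coordinate (lower or higher), because the direction of transcription was read for only 4 of the genes. Expression was not measured in these files, so the cell type of the crypt preparations was not checked against its markers.

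CDX1 and CDX2 are homeodomain proteins, and CDX2 is required for intestinal identity. HNF4A and HNF4G are nuclear receptors that act largely redundantly at enterocyte enhancers, GATA4 and GATA6 are zinc finger factors that pattern the small intestine, KLF4 and KLF5 are zinc finger factors linked to differentiated and to proliferating epithelium, and ELF3 is an epithelial ETS factor. PCGF6 defines the variant Polycomb complex PRC1.6, which is brought to DNA by MGA with MAX, which bind E-boxes, and by E2F6 with its DP partner. RING1B, the ubiquitin ligase of PRC1 complexes, places H2AK119ub1. CTCF stops cohesin, of which RAD21 is the kleisin subunit.

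Promoters of 4 of the genes were read from the RefSeq table (GRCm38.p6, the assembly that mm10 follows), 5 in all since Hnf4a has 2 annotated starts. Promoters of the other genes were neither shown nor searched, so whether they hold a motif was not tested. Each of the 5 is shown from 250 bases before to 50 bases after the start, 5′ to 3′ on the gene's strand. They are shown because peaks of different proteins reach different promoters. Capitals mark a match to 1 of the motifs searched on both strands: the E-box CACGTG, the E2F site GCGGGAA, the T-box sequence AGGTGTG and the CTCF core AGGGGGC.
Cdx2 (chr5:147307200-147307499, minus strand): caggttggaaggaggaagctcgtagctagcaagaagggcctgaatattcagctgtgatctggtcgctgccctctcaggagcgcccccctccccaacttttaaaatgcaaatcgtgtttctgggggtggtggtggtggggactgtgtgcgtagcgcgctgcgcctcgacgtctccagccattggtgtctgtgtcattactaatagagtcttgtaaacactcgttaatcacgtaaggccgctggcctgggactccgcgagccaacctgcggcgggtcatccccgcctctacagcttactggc
Hnf4a, start 1 (chr2:163506607-163506906, plus strand): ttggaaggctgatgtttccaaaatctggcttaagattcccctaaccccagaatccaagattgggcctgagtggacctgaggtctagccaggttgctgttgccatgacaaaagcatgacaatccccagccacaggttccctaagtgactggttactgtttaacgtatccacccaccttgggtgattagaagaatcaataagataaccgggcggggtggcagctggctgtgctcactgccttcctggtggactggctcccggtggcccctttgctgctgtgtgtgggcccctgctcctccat
Hnf4a, start 2 (chr2:163546905-163547204, plus strand): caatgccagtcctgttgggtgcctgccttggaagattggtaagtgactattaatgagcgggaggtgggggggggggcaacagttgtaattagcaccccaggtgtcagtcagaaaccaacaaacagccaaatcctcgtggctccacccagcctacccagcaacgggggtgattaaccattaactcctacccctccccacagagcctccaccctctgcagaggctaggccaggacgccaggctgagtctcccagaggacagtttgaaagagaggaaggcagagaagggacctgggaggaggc
Klf4 (chr4:55532426-55532725, minus strand): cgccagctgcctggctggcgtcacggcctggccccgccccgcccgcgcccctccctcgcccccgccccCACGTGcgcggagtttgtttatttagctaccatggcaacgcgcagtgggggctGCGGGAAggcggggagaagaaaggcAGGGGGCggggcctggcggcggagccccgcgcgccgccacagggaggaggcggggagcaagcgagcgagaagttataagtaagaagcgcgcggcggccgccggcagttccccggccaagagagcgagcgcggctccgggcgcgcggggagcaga
Elf3 (chr1:135258423-135258722, minus strand): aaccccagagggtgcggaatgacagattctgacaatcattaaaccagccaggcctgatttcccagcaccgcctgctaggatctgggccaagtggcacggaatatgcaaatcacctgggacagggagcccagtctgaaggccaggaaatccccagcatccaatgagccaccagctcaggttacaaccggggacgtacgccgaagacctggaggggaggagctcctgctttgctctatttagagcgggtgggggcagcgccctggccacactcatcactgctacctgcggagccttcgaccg

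The Klf4 promoter was the 1 promoter of the 5 with a match, and it had 3: CACGTG at bases 69 to 74, GCGGGAA at bases 122 to 128 and AGGGGGC at bases 147 to 153, counted from 1 at the 5′ end. Among 32851 promoters of the same length, CACGTG occurred in 7.15%, GCGGGAA in 4.60%, AGGTGTG in 5.84% and AGGGGGC in 10.6%, and the 3 found at Klf4 occurred together in 24. It was also the richest in CpG, with 40 CG dinucleotides and 74.3% G+C, against medians of 7.00 and 52.7% over all promoters. No peak of any of the 16 lists reached this Klf4 window. The Elf3 promoter, with 12 CG dinucleotides and no motif match, lay under PCGF6, CTCF and RAD21 peaks. These matches are letters in a window and were not tested for binding.

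All 9 genes had a peak within 1 kb of an end in at least 1 list, and 184 peaks of the 16 lists lay in the genes or within 10 kb of them. Gata4 held 61 of these, Cdx1 28, Hnf4a 18, Cdx2 17, Elf3 and Gata6 16 each, Hnf4g 12, Klf4 9 and Klf5 7. The windows differ in length, from 24899 bp at Elf3 to 171771 bp at Hnf4g. Hnf4a and Hnf4g had a peak at an end in 1 list each, and Gata6 in 10.

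**Figure D1:**
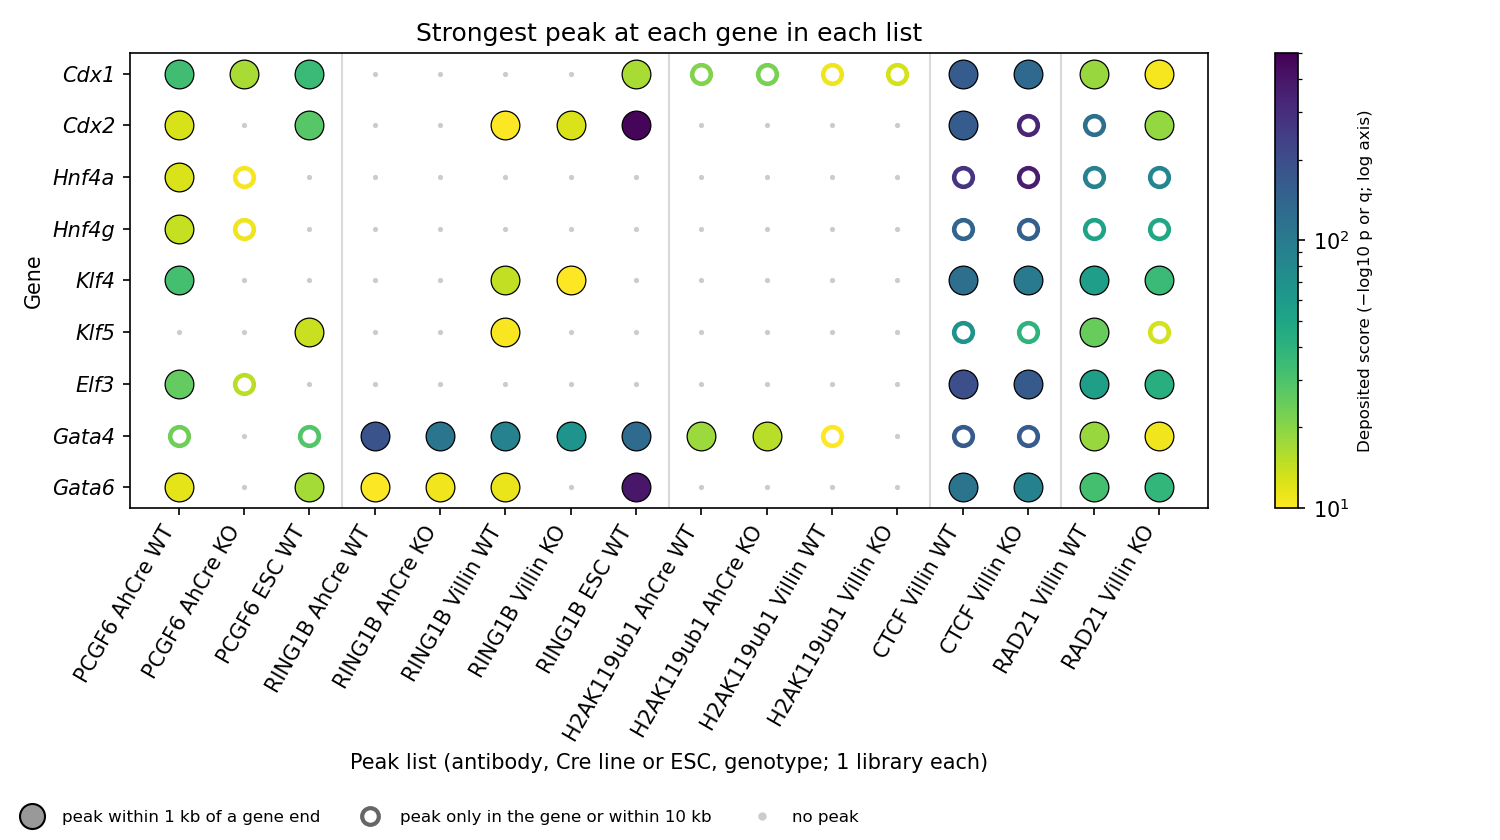
Strongest peak at each gene (rows) in each of the 16 lists (columns), coloured by deposited score on a log scale. Filled circles are genes with a peak within 1 kb of an end and take the colour of that peak, rings are genes whose peaks lie only inside the gene or within 10 kb, and dots are genes without a peak. CTCF and RAD21 are present in every row, RING1B is strongest at Gata4 in crypts and at Cdx2 (477) and Gata6 (393) in ESC, and H2AK119ub1 appears in the rows of Cdx1 and Gata4 alone.

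PCGF6 lay at an end of 7 of the 9 genes in WT AhCre crypts, against 39.9% of all genes, and at 1 of them, Cdx1, in KO crypts, against 13.7%. The peak was lost at 6 genes: Cdx2, Hnf4a, Hnf4g, Klf4, Elf3 and Gata6. Over all genes, 64.4% of those with a WT peak lost it. No gene of the 9 gained one, and over all genes without a WT peak 0.152% did. Klf5 and Gata4 had no PCGF6 peak at an end in either genotype. With both lists shortened to equal length by score, 2 of the genes had a WT peak and 1, Klf4, lost it. With scores of 20 or more, 3 had a WT peak, Cdx1, Klf4 and Elf3, and all 3 counted as having lost it. Cdx1 did so because its KO end peaks (16.7 and 11.5) scored below 20. Counting the whole gene with 10 kb, 4 lost it, Cdx2, Klf4, Gata4 and Gata6, because Hnf4a, Hnf4g and Elf3 had a KO peak farther from their ends.

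Most of these peaks were low in the list, whose median score was 18.1. Klf4 had the strongest lost end peak (chromosome 4, 55529920 to 55532126, score 32.2), inside the gene and ending short of the promoter shown above. Elf3 followed with a peak of score 25.5 over its whole promoter window (chromosome 1, 135258283 to 135259278). The 4 others, at Hnf4g (14), Cdx2 (12.6), Hnf4a (12.4) and Gata6 (11.8), scored at or below the 30.5th percentile of the WT list. The Klf4 peak also lay within 1 kb of an end of the non-coding RNA gene Gm12506, and the Gata6 peak of Gata6os, likewise non-coding.

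Of the CDX pair, Cdx1 kept a PCGF6 peak at both ends. Its lower end (chromosome 18, 61017171 to 61019520) scored 33.4 in WT and 16.7 in KO crypts, and its higher end 30.1 and 11.5. Over the whole list, 97.2% of WT peaks with a KO counterpart scored lower in KO. What a PCGF6 antibody peak in Pcgf6 KO crypts reflects was not tested. The higher-end peaks of PCGF6, CTCF, RAD21 and ESC RING1B also lay within 1 kb of an end of the protein-coding gene Gm52351. The lower-end peak was 2350 bp wide in WT and 1401 bp in KO crypts, and the higher-end peak 5406 bp (61031212 to 61036617) and 1333 bp, beside list medians of 1026 and 721 bp. Within 10 kb, PCGF6 peaks covered 11633 bp of Cdx1 in WT and 2734 bp in KO crypts, a ratio of 0.235, against 0.198 for the whole list. That ratio includes the 4 other WT peaks at Cdx1, which had no KO counterpart. Cdx2 had its crypt peak past the 3′ end (chromosome 5, 147299202 to 147300122, score 12.6) and 2 more farther out on that side (14.8 and 10.9). None of these 3 had a KO counterpart, and no crypt PCGF6 peak lay at the Cdx2 start.

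At both nuclear receptor genes the end peaks were weak, and at Hnf4a the strongest peak lay outside the gene. The Hnf4a end peak (chromosome 2, 163505999 to 163507453, score 12.4) covered all 300 bases of the first promoter window. A second peak (163546663 to 163547159, score 19.8) covered 255 of the 300 bases of the downstream start. Hnf4a has 2 promoters that are used in different stages and tissues, and both carried PCGF6 in WT crypts and neither in KO crypts. The highest PCGF6 score near any of the 9 genes was a peak beyond the higher-coordinate end of Hnf4a (163574212 to 163576051, score 37.2), and it too had no KO counterpart. Hnf4g had 1 PCGF6 peak within 10 kb, at its lower end (chromosome 3, 3507631 to 3508534, score 14), in its window of 171771 bp.

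Elf3, a gene of 4899 bp, had 5 PCGF6 peaks within 10 kb. The 4 at or nearest the gene (scores 14, 10.3, 14.4 and 25.5) had no KO counterpart. The fifth, beyond the start (135265488 to 135266745), scored 19.8 in WT and 14.9 in KO crypts. At the GATA genes, Gata6 had 1 peak at its lower end (chromosome 18, 11050784 to 11054239, score 11.8). Gata4 had none at an end and 4 within 10 kb, with scores of 10.7, 23.8, 13.4 and 15.2, and all 4 were absent in KO crypts. Klf5 had no crypt PCGF6 peak within 10 kb, and Klf4 had only its end peak.

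**Figure D2:**
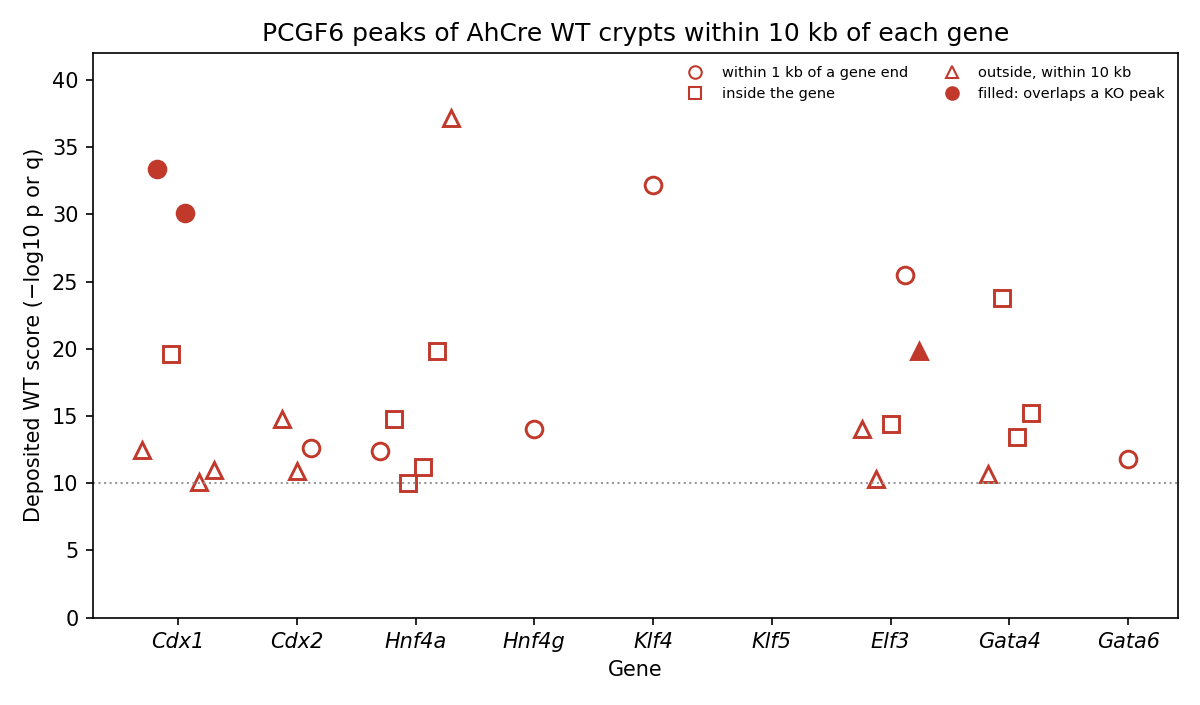
WT PCGF6 peaks of AhCre crypts within 10 kb of each gene, 1 symbol a peak, placed by deposited score (−log10 p or q, linear axis). Circles lie within 1 kb of a gene end, squares inside the gene and triangles outside it, filled symbols overlap a KO peak, and the dotted line marks the lowest score of the lists, 10.0. The 3 filled symbols are 2 at Cdx1 and 1 at Elf3, and no peak reaches 40.

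Counted by peak, 8 of the 9 genes had PCGF6 within 10 kb in WT crypts (55.9% of all genes) and 4 in KO crypts (24.3%). Of the 27 WT peaks, 24 had no KO counterpart, against 73.1% of the 17163 peaks of the list. All 9 peaks inside genes, 9 of 10 peaks outside and 6 of 8 end peaks were without one. The share depended on score in the whole list: 96.2% of peaks scoring 10 to 15 had no counterpart, 88.2% of those from 15 to 20, 63.8% from 20 to 40, and 15.9% above that. The genes' peaks were 17 of 17, 3 of 4 and 4 of 6 in the first 3 ranges, and none of the 27 reached 40, as 2640 peaks of the list did. Their median score was 14 and 18 of the 27 were at or below the median of the list. Within each range the loss at these genes was near that of all peaks. Whether fewer cells or less PCGF6 per cell lie behind a lower score cannot be told apart in bulk crypts. KO crypts had 2 peaks without a WT counterpart, at Hnf4a (score 10.6) and inside Hnf4g (11.1), and 83 of 4779 KO peaks of the list (1.74%) were of this kind.

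RING1B lay at an end of 2 genes, Gata4 and Gata6, in WT AhCre crypts (7.74% of all genes) and at the same 2 in KO crypts (4.89%). None of the 2 lost it, against 44.7% of all genes with a WT peak, and none of the 9 gained it (0.782%). Loss depended on score in this list too. Of all its WT peaks, 71.2% of those scoring 10 to 15 had no KO counterpart, against 1.60% of those at 40 or more. Gata6 (10.3) was in the lower of these ranges and Gata4 (184) in the upper. In Villin crypts, RING1B was at Cdx2, Klf4, Klf5, Gata4 and Gata6 in WT (14.2%) and at Cdx2, Klf4 and Gata4 in KO (7.61%). The peaks of Klf5 and Gata6 were lost, 2 of 5, against 53.7% over all genes, and no gene gained 1 (1.31%). In the WT Villin list, 78.6% of peaks scoring 10 to 15 had no KO counterpart, against 6.68% at 40 or more. Gata4 (88.2) was in the upper range, and the end peaks of Cdx2, Klf4, Klf5 and Gata6 in the lower. With lists of equal length, Gata6 in AhCre and Cdx2 in Villin crypts counted as gained. Counting the gene and 10 kb gave the same genes, 2 and 2 in AhCre (12.0% and 7.68% of all genes) and 5 and 3 in Villin crypts (21.7% and 12.0%). Hnf4a, Hnf4g and Elf3 had no RING1B within 10 kb in any of the 5 RING1B lists.

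Apart from Gata4, the RING1B peaks in crypts scored from 10.0 to 14.3, below the medians of their lists (14.7 to 16.3). The highest, at Klf4, was close to the WT Villin median of 14.7. Gata6 scored 10.3 in WT and 10.8 in KO AhCre crypts, and 11.4 in WT Villin crypts. Klf4 scored 14.3 in WT and 10.0 in KO Villin crypts, at a peak that overlapped the WT PCGF6 peak. Klf5 scored 10.4 in WT Villin crypts (chromosome 14, 99298458 to 99299542). At Cdx2 the WT Villin peak lay at the start (147305809 to 147307259, score 10.3) and reached 60 bases of the promoter shown, whereas the KO peak lay at the 3′ end (147299725 to 147300293, score 12.4). These 2 do not overlap, so Cdx2 counts as having a peak in both genotypes although the peak at its start was absent in KO crypts. With scores of 20 or more, Gata4 was the 1 gene with RING1B at an end in each crypt list, and 0 genes lost it in either line.

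Gata4 carried a broad RING1B domain in its higher-coordinate part in every list. In WT AhCre crypts it was made of 2 peaks, 63240258 to 63253792 on chromosome 14 (13535 bp, score 87.3) and 63261031 to 63271455 (10425 bp, score 184). In KO AhCre crypts the first was replaced by 4 shorter peaks (scores 13.3, 20.4, 81.0 and 12.0) and the second remained as 1 peak of 9509 bp (score 109). The domain thus kept its place and covered less: 23960 bp in WT and 16295 bp in KO crypts, a ratio of 0.680, beside 0.742 for the whole list. In Villin crypts the scores were 17.1, 20.7, 33.5 and 88.2 in WT and 19.7, 12.5, 23.6, 38.5 and 65.8 in KO, and the covered length was 17564 and 17185 bp. That ratio was 0.978, beside 0.629 for the whole list. The gap between the blocks, which holds the crypt PCGF6 peak of 63255109 to 63255758, had no RING1B in the 4 crypt lists.

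H2AK119ub1, which PRC1 places, was found within 10 kb of 2 of the 9 genes, Gata4 and Cdx1, in WT and KO AhCre crypts (27.6% and 29.8% of all genes) and in WT Villin crypts (18.5%), and of Cdx1 alone in KO Villin crypts (16.3%). At an end it lay at Gata4 alone, in WT (16% of all genes) and KO AhCre crypts (17.7%), and at none of the 9 in Villin crypts (10.4% in WT and 8.85% in KO). No gene lost it, 0 of 1 in AhCre (12.8% over all genes) and 0 of 0 in Villin crypts (29.3%), and none gained it (4.26% and 1.81%). With a window of 2 kb, Cdx1 gained it in AhCre crypts. Gata4 had 6 peaks in WT AhCre crypts (scores 10.0, 11.4, 10.1, 11.4, 11.3 and 18) and 4 in KO crypts (14.5, 14.5, 11.8 and 15.3). The mark covered 11005 bp in WT and 9675 bp in KO crypts, a ratio of 0.879, beside 1.12 for the list. In Villin crypts a peak of 1288 bp (score 10.1) was present in WT and none in KO. Apart from 1 WT peak beyond the lower-coordinate end (score 10.0), the mark lay within or beside the RING1B blocks, and it scored 18 or less.

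**Figure D3:**
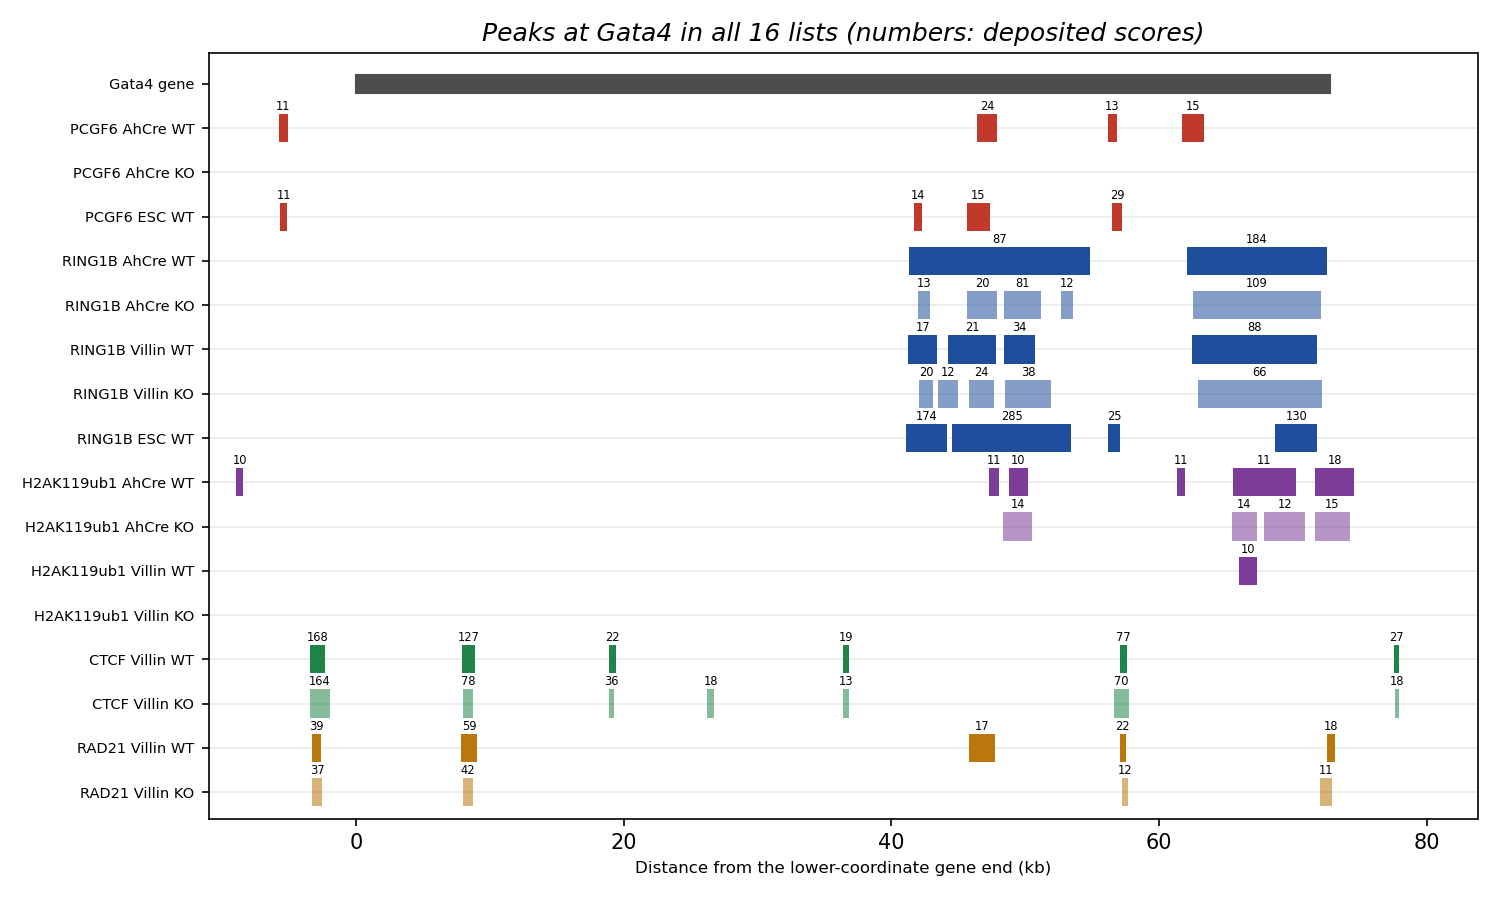
Peaks at Gata4 in the 16 lists, by distance from the lower-coordinate gene end (kb). Each bar is a peak with its rounded score above it, the colour gives the antibody, KO lists are paler, and the dark bar on top is the gene. RING1B occupies the same part of the gene in WT and KO crypts, while the 4 crypt PCGF6 peaks are present in WT alone. ESC RING1B lies in that part too, but its block at the higher-coordinate end is shorter and it has a peak in the gap between the crypt blocks.

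Cdx1 had H2AK119ub1 only outside the gene, on both sides except in KO Villin crypts, where it lay on the lower-coordinate side alone. Peaks on the lower-coordinate side lay within 1 kb of an end of the neighbour Slc6a7. On the higher-coordinate side, no WT peak lay within 1 kb of another gene's end. Some KO AhCre peaks there reached ends of Pdgfrb and Gm52351. In AhCre crypts the scores were 20.9 and 15.3 in WT and 17.1, 12.2, 22.3 and 12.0 in KO, and the mark covered 6400 bp and 10016 bp. In Villin crypts they were 11 and 10.1 in WT and 12.9 in KO, over 2897 bp and 658 bp. The covered length thus moved in opposite directions in the Cre lines, as it did in the whole lists (ratios of 1.12 and 0.835). The score of the peak on the lower-coordinate side, present in all 4 lists, moved the other way, from 20.9 to 17.1 in AhCre and from 11 to 12.9 in Villin crypts. Cdx2, Hnf4a, Hnf4g, Klf4, Klf5, Elf3 and Gata6 had no H2AK119ub1 within 10 kb in any crypt list.

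In ESC, where Klf4 and Klf5 are known as pluripotency factors, PCGF6 lay at Cdx1, Cdx2, Klf5 and Gata6 (22.7% of all genes). Elf3, Hnf4a, Hnf4g and Klf4 had a PCGF6 peak in WT crypts and none in ESC, 4 of 7, against 59.2% of all genes with a crypt peak. With scores of 20 or more this was 2 genes, Elf3 and Klf4. Klf5 had one in ESC only (score 13.8), as did 11.3% of genes without a crypt peak. With lists of equal length, 3 genes had one in ESC only, Cdx2, Klf5 and Gata6. The ESC scores were 35.1 at Cdx1, 28.0 at Cdx2 and 17.0 at Gata6. The Cdx2 peak in ESC lay at the start (147306229 to 147307337) and covered 138 bases of the promoter shown, and it did not overlap the crypt peak at the other end. Gata4 carried PCGF6 in ESC inside the gene and near it (11.2, 13.7, 14.6 and 28.9), which makes 5 genes with PCGF6 within 10 kb (35.5% of all genes).

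RING1B in ESC lay at Cdx1, Cdx2, Gata4 and Gata6 (17.8%), and within 10 kb at the same 4 (26.0%). None of the 2 genes with RING1B in WT AhCre crypts lacked it in ESC (34.4% over all genes), while Cdx1 and Cdx2 had it in ESC only (13.6%). The ESC RING1B peaks of Cdx2, Gata6 and Gata4 were broad, that of Cdx1 was narrow, and Klf4 and Klf5, with weak RING1B in Villin crypts, had none. Cdx2 lay whole within a peak of 10529 bp (147299068 to 147309596, score 477), which took in the entire promoter shown, and a second peak (268) followed toward the neighbouring gene Urad. Gata6 had a peak of 9095 bp (11047327 to 11056421, score 393), against a highest score of 11.4 in crypts. Gata4 scored 174, 285, 24.7 and 129.7 in ESC over 15883 bp, in the same higher-coordinate part of the gene as in crypts. The ESC peak at the higher-coordinate end was 3132 bp wide, against 10425 bp in WT AhCre crypts. The ESC peak of score 24.7 lay in the gap without crypt RING1B. Cdx1 had a narrow peak of score 16.7. The ESC and crypt scores are from libraries of unknown depth and are given side by side only. Of the 10 ESC PCGF6 peaks within 10 kb of the genes, 8 overlapped ESC RING1B, against 45.7% of the list. These 10 peaks lie at 5 genes, and the list share counts peaks anywhere in the genome.

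**Figure D4:**
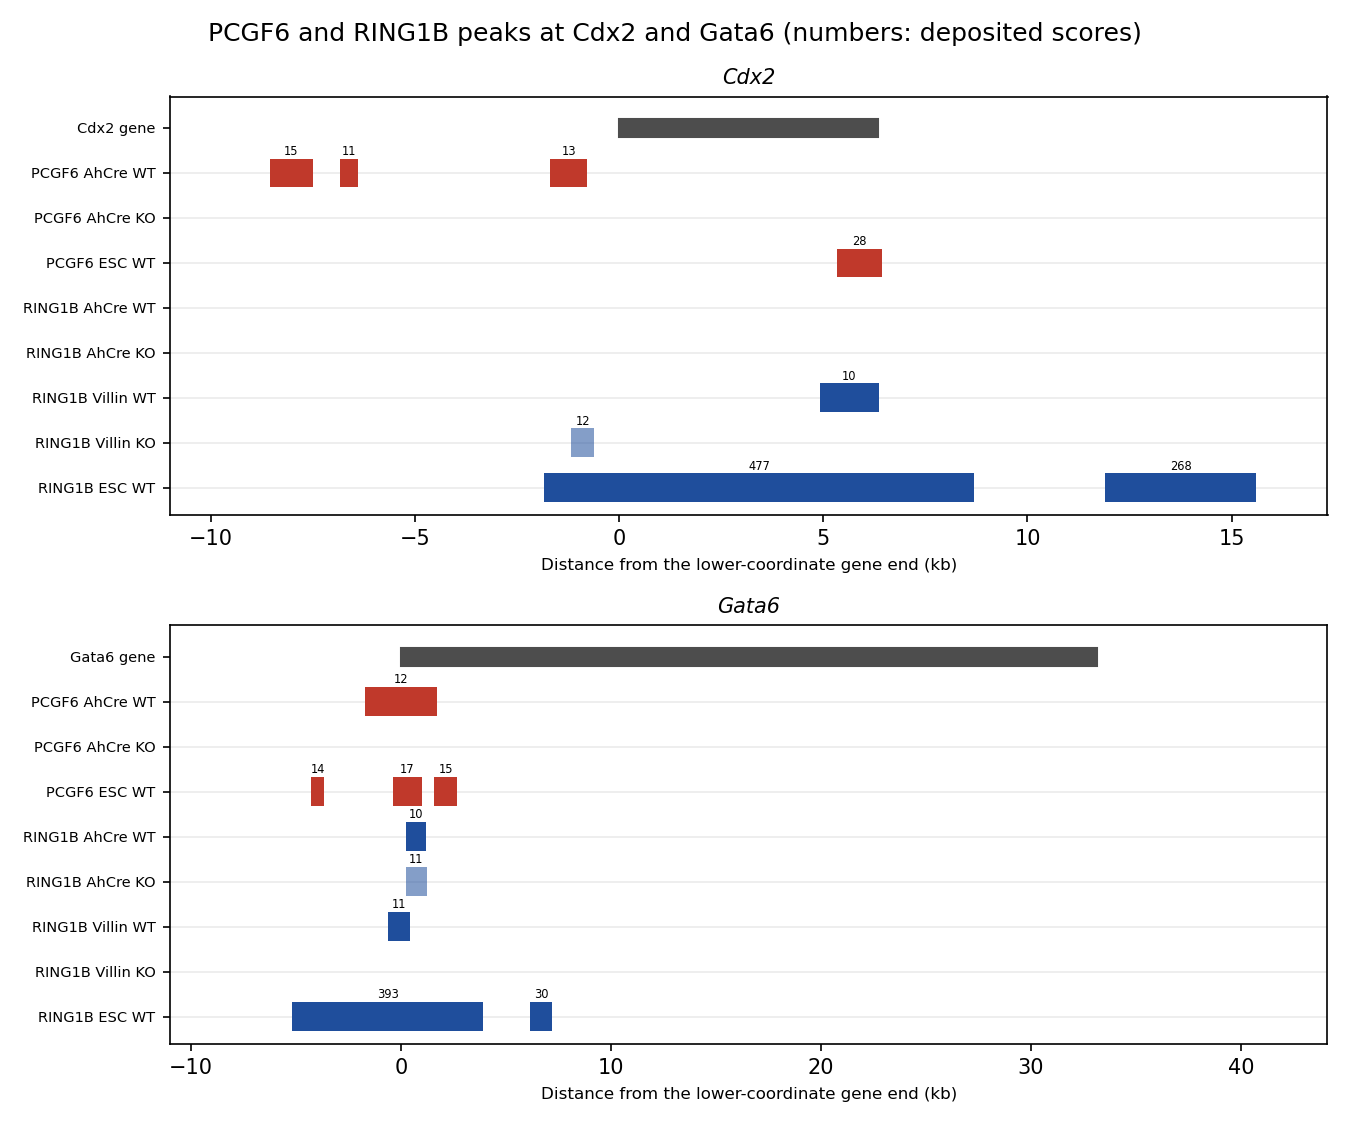
PCGF6 and RING1B peaks at Cdx2 (upper panel) and Gata6 (lower panel) in crypts and ESC, by distance from the lower-coordinate gene end (kb), with rounded scores above the bars and KO lists paler. At Cdx2 the crypt and ESC PCGF6 peaks lie at opposite ends, and at both genes the ESC RING1B peak (477 and 393) is far wider than any crypt peak.

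CTCF was present within 10 kb of all 9 genes in both genotypes of the Villin line (65.3% of all genes in WT and 64.7% in KO), and so was RAD21 (54.1% and 48.6%). At an end, CTCF lay at 5 genes in WT (25.5%) and 4 in KO (23.2%), and none lost or gained it by the overlap rule, against 12.0% lost and 1.26% gained over all genes. The strongest WT end peak of each of the 5 scored above 40, a range in which 0.102% of all WT peaks had no KO counterpart. The scores in WT and KO were 162 and 134 at Cdx1, 122 and 101 at Klf4, 196 and 167 at Elf3, and 112 and 90.8 at Gata6. The Cdx2 peak past the 3′ end scored 162 in WT and 172 in KO, and in KO its edge lay 1071 bp from the gene, just outside the window, against 899 bp in WT. Cdx2 was thus the 1 gene of these 5 with the higher CTCF score in KO.

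The strongest CTCF peaks were inside Hnf4a and beside Cdx2. In Hnf4a, between its 2 starts, they scored 266 in WT and 221 in KO (163531585 to 163532636) and 276 and 364 (163534449 to 163535620), and each lay over a weak WT PCGF6 peak (10.0 and 11.2). Beside Cdx2, on its 3′ side, the scores were 296 and 331. Of 22 WT CTCF peaks, 1 had no KO counterpart (score 10.7, at the lower end of Klf4), against 9.18% of the list. Of the 22, 17 scored 40 or more, where 0.102% of the list had no counterpart, and 1 scored 10 to 15, where 55.5% had none. Of the 21 pairs, 15 scored lower in KO, against 49.7% of all pairs. For RAD21 this was 14 of 18, against 64.1%. These shares count peaks of 1 library per genotype and carry no test.

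RAD21 lay at an end of 6 genes in WT (22.2% of all genes) and in KO (14%). Klf5 lost its RAD21 peak (99298267 to 99299603, score 25.0), 1 of 6, against 41.1% of all genes with a WT peak, although a weaker RAD21 peak inside the gene was kept (19.9 and 13.1). None of the 9 gained one (1.62%). Loss fell with score in this list too, from 74.1% of WT peaks scoring 10 to 15 to 0.717% of those at 40 or more. The scores in WT and KO were 56.7 and 35.5 at Klf4, 55.8 and 42.4 at Elf3, 18.2 and 10.5 at Cdx1, 18.4 and 10.8 at Gata4, and 32.3 and 38.0 at Gata6. Gata6 was the 1 gene of these 5 with the higher score in KO. Cdx2 had RAD21 just outside the window in WT (13.9) and inside it in KO (18.8). The lost Klf5 peak held the lost RING1B peak of the same gene in the same line, and the ESC PCGF6 peak lay over it, but no crypt PCGF6 peak.

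RAD21 peaks without CTCF made up 5 of the 6 that were missing in KO crypts. Of 24 WT RAD21 peaks within 10 kb, 17 overlapped WT CTCF and 1 of these had no KO counterpart, against 16.4% of 18000 such peaks in the list. The 7 without CTCF lost 5, against 78.6% of 2653. These 5 lay at Cdx1 (score 10.6), Klf5 (25.0), Elf3 (13.9), Gata4 (17.4) and Gata6 (10.6), and the 1 lost with CTCF lay inside Hnf4a (19.9). The 7 scored 10.6 to 25.0, whereas those with CTCF started at 13.9 and included the highest RAD21 score at these genes, beside Cdx2, so CTCF and score moved together, and the part of either in the loss was not tested. Crypt PCGF6 overlapped 3 of the 7 (66.5% of all RAD21 peaks without CTCF) and 10 of the 17 (23.3% of all with CTCF). With 7 and 17 peaks, no order was read from these 2 shares.

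**Figure D5:**
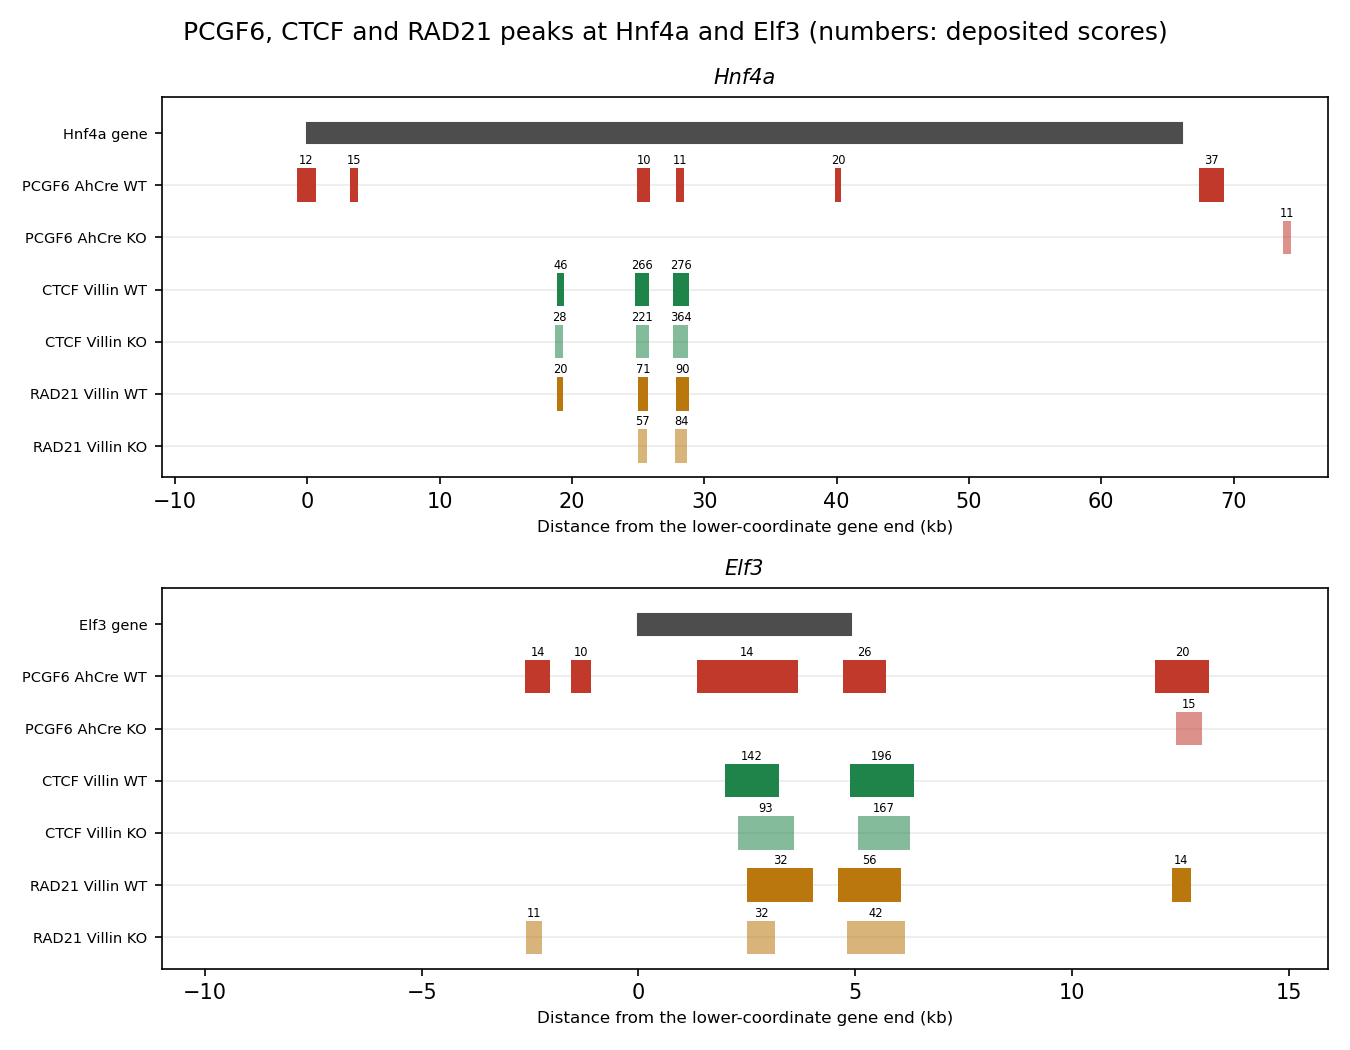
PCGF6, CTCF and RAD21 peaks at Hnf4a (upper panel) and Elf3 (lower panel) in crypts, by distance from the lower-coordinate gene end (kb), with rounded scores above the bars and KO lists paler. The CTCF peaks of both genes are present in WT and KO, and 2 PCGF6 peaks of each gene lie over CTCF peaks and are absent in KO.

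The overlap of crypt PCGF6 with the other layers is given beside that of its whole list, and since the other lists differ in length (32651 CTCF, 20653 RAD21 and 2368 AhCre RING1B peaks in WT), the layers are not ranked. Of the 27 WT PCGF6 peaks, 11 overlapped CTCF (40.7%, against 32.3% of the list), 13 overlapped RAD21 (48.1% against 33.9%) and 3 each overlapped RING1B (11.1% against 7.20%) and H2AK119ub1 (11.1% against 13.4%) of the AhCre line. RING1B of WT Villin crypts overlapped 4 (14.8% against 15.9%). Of the 22 WT CTCF peaks, 10 overlapped PCGF6, or 45.5%, against 17.3% of the CTCF list. The list shares count peaks anywhere in the genome, whereas the peaks counted here all lie within 10 kb of a gene. PCGF6 was profiled in the AhCre line and CTCF and RAD21 in the Villin line, so these overlaps join different mice. The 3 PCGF6 peaks that lay with AhCre RING1B were at Gata4 and Gata6.

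PCGF6 at other genes of the enterocyte programme was read from lists fixed by name. Among 18 further intestinal transcription factors, 15 had it in WT crypts and 11 lost it, led by Prdm1, a repressor of the adult programme in the suckling gut (35.0), Pparg (25.7), Maf (17.9) and Foxa2 (15.8). The lipid-sensing receptor gene Ppara kept it (125 in WT and 46.3 in KO), as did Esrra (29.0 and 20) and Rxra (20.8 and 11.4). Among 25 paralogs of the 9 genes, 15 had it and 9 lost it, led by Klf7 (30.0), Klf3 (25.8), Klf11 (20) and Klf2 (18.9), while Klf9 (75.1 and 29.3), Elf2 (69.9 and 16.3), Klf1 (58.3 and 23.0) and Klf13 (55.8 and 20) kept it. Klf4, at 32.2, scored above each of the KLF paralogs that lost it. Among 20 enterocyte target genes, 10 had it and 5 lost it, led by the apolipoprotein gene Apoa1 (23.0), Dpp4 (18.9), Treh (17.3) and Apob (13.5), while Rbp2 (51.1 and 23.8) and Mttp (36.5 and 13.7) kept it. These lists carry no test. The counts with a WT peak stand beside 39.9% of all genes, and the loss beside 64.4% of all genes with a WT peak.

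The other layers were read at the same lists, with no test between them. RING1B was at 3 of the 18 transcription factor genes, 5 of the 25 paralogs and 0 of the 20 target genes in WT AhCre crypts (7.74% of all genes), and at 6, 11 and 0 in WT Villin crypts (14.2%). In KO crypts 1 target gene had it in each line, Apoa1 in AhCre (11.2) and Vil1 in Villin (15.9), both without it in WT. Prdm1 scored 257 in WT and 218 in KO AhCre crypts. Gata3, a paralog that acts in T cells and skin, scored 217 and 169 in AhCre crypts. Its Villin scores were 184 and 25.0. Gata2 scored 73.1 and 77.0 in AhCre crypts, so Gata4 was not the only GATA gene with strong RING1B. H2AK119ub1 was at 3 transcription factor genes, 9 paralogs and 0 targets in WT AhCre crypts (16% of all genes), and at 3, 12 and 1 in KO (17.7%). CTCF was lost at 1 of 6, 2 of 9 and 0 of 8 of the 3 lists (12.0% over all genes) and RAD21 at 4 of 13, 4 of 11 and 2 of 9 (41.1%).

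Markers of other cells in the crypt preparation were also read. In WT AhCre crypts PCGF6 lay at 3 of 5 stem cell markers, 1 of 6 secretory, 1 of 3 tuft, 2 of 5 mesenchymal, 0 of 3 endothelial and 0 of 4 immune cell markers (39.9% of all genes), and H2AK119ub1 at 4, 4, 2, 3, 0 and 0 of them (16% of all genes). The lists are too short for a difference from all genes to be read. Ascl2, a stem cell factor, had the highest lost PCGF6 score among them (67.7). A peak does not show whether a gene is expressed, and the part of other cell types in the peaks of the 9 genes was not tested.

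Each gene's pattern of end peaks over the 16 lists was set beside that of every other gene, counting the lists that differ and then the distance in log2 score. Hnf4a and Hnf4g had the same pattern, a crypt WT PCGF6 peak and nothing else, and each shared it with 1319 genes, the other of the pair included. Elf3, with PCGF6 in WT and CTCF and RAD21 in both genotypes, had the pattern of 412 others, of which Zfp54, Decr2 and Lsm4 were nearest. Klf4 matched 3 genes (Scarb2, Ddit4 and Gprin3) and Cdx1 matched 21, the nearest being Zswim8, Nt5c and Rrs1. Cdx2, Klf5, Gata4 and Gata6 matched none: Egfr and H2-D1 differed from Cdx2 in 1 list, Dld, Sccpdh and Peli1 from Klf5, Sspo and Zfp467 from Gata4, and Adgrl2, Zdhhc14 and Spry1 from Gata6. Likeness here says only which lists hold a peak.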

How the data were processed

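ChIP-seq peaks of 16 libraries, 1 per group, were read from the deposited lists. Each peak's −log10 p or q value (which was not stated) was computed by the authors' peak caller and deposited as its score. MACS2 2.1.1, Bowtie 1.1.2 and Bowtie 1.2.2 stand in the submitters' processing notes beside mm10, hg38 and dm6, with no role given. Per the labels, input of WT crypts or ESC was the reference. Positions were converted to 1-based mm10, and chromosomes 1 to 19, X and Y were kept. Gene ends came from the RefSeq table. Overlap meant at least 1 bp.

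With 1 library per group, loss and gain are counts beside the share over all genes, and no test was run. Every one of the 9 genes is named, with up to 4 genes of each other list per comparison (the highest WT score among lost, otherwise the highest score) and up to 3 genes of most similar pattern. Not every gene chosen this way is reported here. The genes and lists were chosen with earlier results of these data known. Alternatives were a 2 kb window, the gene with 10 kb, a score of 20 or more, lists of equal length and no overlap rule. On a copy of a list with the peaks of 243 genes removed, all 243 were called lost. Python 3.11.15, numpy 2.4.6, pandas 2.3.3, matplotlib 3.10.9 and bedtools 2.31.1 were used. Read depth was not given, so intervals were not computed.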

Additional observations from a re-analysis of the deposited data

Results flagged for a closer look

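At 2 places the covered length within 10 kb moved in opposite directions in the 2 Cre lines, and the difference was not tested, with 1 library per group. RING1B at Gata6 covered 85 bp more in KO than in WT AhCre crypts (1025 against 940 bp), and its change in Villin crypts was -1078 bp, from 1078 bp to none. The whole lists had KO to WT ratios of 0.742 and 0.629. H2AK119ub1 beside Cdx1 covered 3616 bp more in KO than in WT AhCre crypts, and its change in Villin crypts was -2239 bp. The whole lists moved the same ways there, with ratios of 1.12 and 0.835.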

How the results depend on the processing

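In the 4 comparisons with a count above 0, 13 of 20 alternatives stayed within 1.5 times that count, and in the 5 with a count of 0, 23 of 25 gave 0 again, which says little about stability. The number of genes that lost PCGF6 was 3 with a score of 20 or more (Cdx1, Klf4 and Elf3) and 1 with lists of equal length (Klf4), against 6. Cdx1 counts there because its KO peaks scored below 20, and the alternatives leave fewer genes with a WT peak (3 and 2). Counting the gene with 10 kb, 4 genes lost PCGF6, with Gata4 in place of Hnf4a, Hnf4g and Elf3. The number that lost RING1B in Villin crypts was 0 under both, against 2. The number with PCGF6 in crypts and not in ESC was 2 under both, against 4. Counting the gene with 10 kb, 1 gene (Gata4) lost H2AK119ub1 in Villin crypts, against 0, and 0 lost RAD21, against 1. Without the overlap rule 1 gene (Cdx2) lost CTCF, against 0, because its KO peak lies past the window, and Cdx2 gained RAD21. With lists of equal length, Gata6 gained RING1B in AhCre and Cdx2 in Villin crypts, and 3 genes had PCGF6 in ESC only, against 1. With scores of 20 or more that gene was Cdx2, not Klf5, and Gata6 took the place of Cdx1 among the 2 with RING1B in ESC only. With a window of 2 kb, Cdx1 gained H2AK119ub1 in AhCre crypts. No paired analysis was possible because each group had 1 library, and for the same reason no replicate could be left out. Read depth is unknown, so a missing weak peak cannot be told apart from a peak below the calling limit.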
